A study of Mus musculus with 4 samples.

Results

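The splicing factor genes of 4 families were examined in mouse blood lymphocytes: the SR family (symbols starting with Srsf and a digit), the heterogeneous nuclear ribonucleoprotein family (hnRNP, symbols starting with Hnrnp), the small nuclear ribonucleoprotein family (snRNP, symbols starting with Snrp) and the SF3 family (symbols starting with Sf3a or Sf3b). The count table holds 52 such genes among 15093, of which 11 are SR, 20 hnRNP, 12 snRNP and 9 SF3 genes. The study asked how non-thermal plasma (NTP), an ionized gas close to body temperature, acts on the immune system when it is applied to skin. Mononuclear cells were isolated from the blood of 4 mice on a density gradient, and single cells were sequenced with a droplet method that captures polyadenylated RNA near its 3′ end. A unique molecular identifier (UMI) marks each captured molecule, so that a count stands for molecules. Levels are given without a correction for gene length, and an effect of length on comparisons between different genes was not examined.

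All 4 mice were female C57BL/6 wild-type animals aged 3.2 ± 0.3 months. The treated mice, Maus3_2 and Maus6, were anaesthetized and had one ear exposed to an argon plasma jet for 10 min. The untreated mice, Maus2_2 and Maus4_2, had the same anaesthesia without plasma. In treated mice blood was drawn 120 min after the exposure, and in untreated mice 120 min after anaesthesia began. The time under anaesthesia thus also differs between the groups and cannot be told apart from the plasma. With 2 mice against 2, the smallest p-value that an exact two-sided permutation of 1 measurement allows is 0.33, and p-values here cover only the spread between these mice. The 5794 cells hold 23692981 UMIs, 4653719 to 7093148 per mouse, and 4 cell barcodes occur in more than 1 library. The authors' labels cover 3130 B, 1517 CD4+ T, 600 CD8+ T and 73 natural killer (NK) cells and 474 plasmablasts (PB), and every cell belongs to 1 of their 12 clusters. The B and T cell labels matched their markers. The PB cells did not show the defining plasmablast marker: Jchain was at 0 UMIs, and the summed plasmablast list took 0.0247 to 0.0312% of UMIs against 0.0259 to 0.0289% in B cells. The B cell list took 0.708 to 0.881% in PB and 0.450 to 0.493% in B cells. They are therefore called PB cells by their label only. In Maus2_2 the red blood cell list took 0.371% of the UMIs of PB cells, against at most 0.0115% in any other mouse and type. Over the PB cells of all mice, the 235 UMIs of Hba-a1 lay in 1.05% of cells and the 696 of Hbb-bs in 6.75%. The defining NK genes Ncr1 and Klrb1c had 1 UMI each in the 73 NK cells. Cd3d was detected in 98.6%, Cd8a in 63% and Cd8b1 in 74% of these cells. Other genes of the NK list were detected in them: Nkg7 in 97.3%, Klrd1 in 76.7%, Eomes in 17.8% and Gzma in 1.37%. In CD8+ T cells Nkg7 was detected in 70% and Klrd1 in 68%. The NK list took 0.0808 to 0.133% of UMIs in NK cells, against 0.0455 to 0.0608% in CD8+ T cells. The T cell list took 0.266 to 0.343% in NK cells, against 0.308 to 0.326% in CD8+ T cells. With markers of both kinds, these cells too are called NK cells by their label only.

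Splicing removes introns from precursor RNA in the spliceosome. The snRNP genes encode proteins of its small nuclear RNA particles: Snrpb, Snrpd1, Snrpd2, Snrpd3, Snrpe, Snrpf and Snrpg encode the Sm ring that several particles share, Snrpa and Snrpc belong to the U1 particle, and Snrpa1 and Snrpb2 to the U2 particle. The SF3a and SF3b complexes, with Sf3b1 as the largest subunit, anchor U2 at the branch point. SR proteins bind exons and mostly favour their inclusion, whereas hnRNP proteins coat the transcript and often favour skipping. In lymphocytes, the best known example is Ptprc (CD45), whose variable exons are skipped when Hnrnpll is present.

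The most abundant of the 52 genes was Snrpg with 14558 UMIs, followed by Srsf5 with 8770, Hnrnpf with 8758, Hnrnpa3 with 8669 and Hnrnpa2b1 with 7608. Sf3b1 led its family with 5681 UMIs. Within each family the levels spanned a wide range. The scarcest members were Sf3a2 with 532 UMIs, Hnrnpll with 161, Srsf12 with 22 and Snrpn with 3. Snrpn, which encodes a brain-enriched Sm protein, had no UMI in B, PB or NK cells, which in B cells allows up to 0.269 CPM (UMI counts scaled to a common library total), for counting error only. Thinning each cell to 2000 UMIs left out 276 shallower cells. Among B cells these were 148 in Maus4_2 and 10 to 50 in each other mouse. Every remaining cell held at least 1 UMI of the 52 genes. The median was 15 UMIs of these genes in B and CD4+ T cells, 16 in PB, 14 in CD8+ T and 13 in NK cells. The plot of all levels shows that most members lay within a narrow band across cell types and that Hnrnpll, Srsf12 and Snrpn did not.

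**Figure D1:**
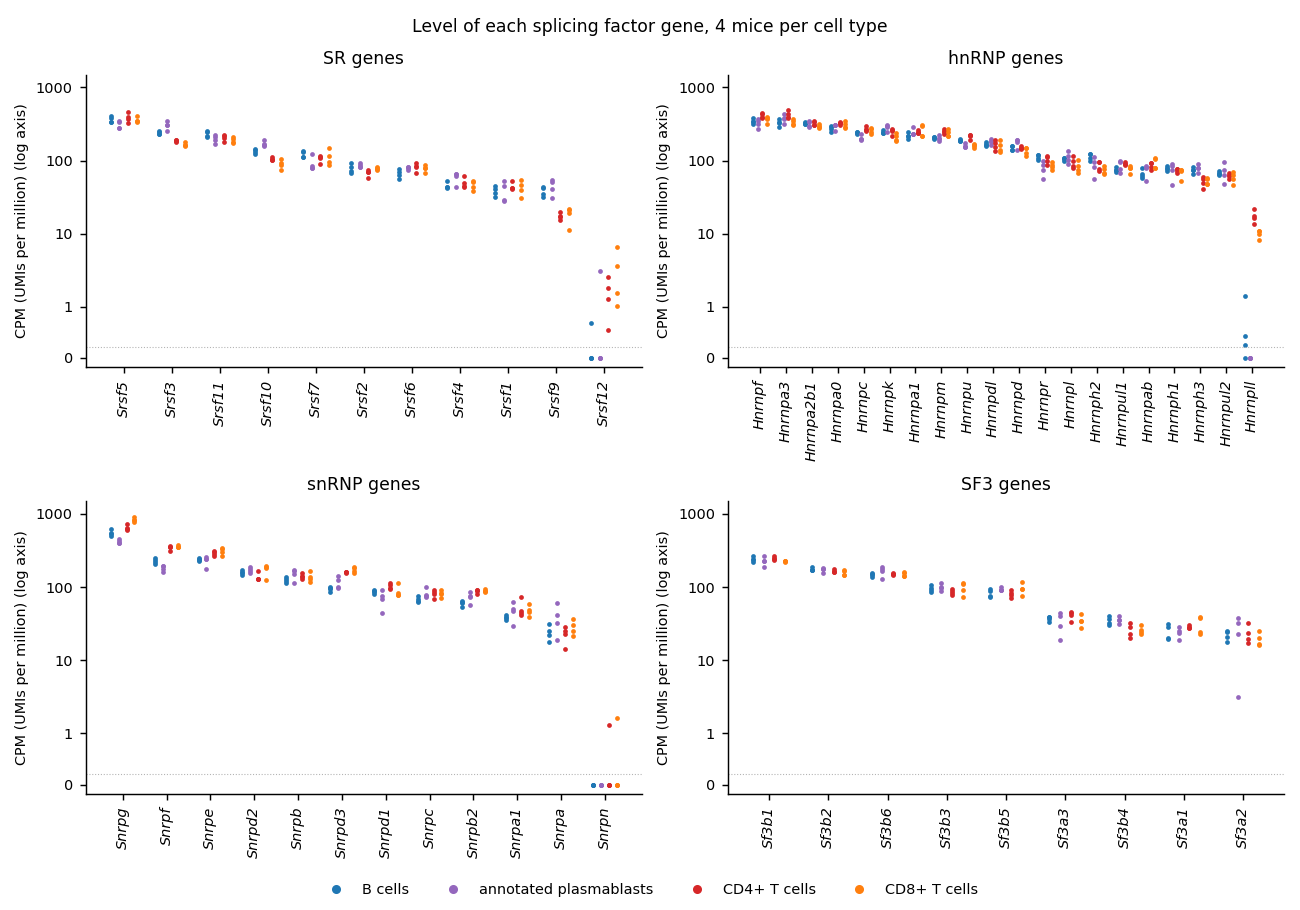
Level of each of the 52 genes in CPM (UMIs scaled to a common total, log axis, with 0 drawn below the dotted line), 1 point per mouse and 4 mice per cell type, ordered by total UMIs within each family. Snrpg lies highest in all 4 cell types drawn, and Hnrnpll drops from 13.5 to 21.5 CPM in CD4+ T cells to 0 in PB cells.

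The members are spread over 18 chromosomes, and their genes are short: the median length was 10446.5 bases, against 21674 for all genes of the table (GENCODE vM21 on GRCm38). SR genes were shortest, with a median of 7228 bases. RefSeq promoters (GRCm38.p6, from 250 bases before to 50 after the start) were at hand for 46 members. The ETS core CCGGAAGT, searched on both strands, occurred in 9 of the 46 (19.6%) and in 8.78% of the 11018 promoters of table genes. It was found in 3 of 7 SF3, 3 of 11 SR, 2 of 18 hnRNP and 1 of 10 snRNP promoters. The CCAAT box occurred in 23 of the members' promoters and in 42.5% of all, and the GC box GGGCGGG in 58.7% and 48.1%. The Kaiso palindrome was present in 1 member, Srsf10 (1.04% of all), and a YY1 core in 1 SF3 member (1.70% of all). A match describes letters in a window and shows no binding. The following stretches are shown for the 5 of these 9 members that carry the ETS core on the strand of the gene, while Hnrnpd, Sf3a3, Srsf4 and Srsf11 carry it on the opposite strand only. They are printed with the motif in capitals, written 5′ to 3′ in the direction of the gene:
Sf3a1 (chr11:4160347-4160354, + strand): gggcgggaCCGGAAGTgctcccgc
Sf3b2 (chr19:5295461-5295468, − strand): ttacgcaaCCGGAAGTttctggaa
Srsf5 (chr12:80945476-80945483, + strand): gcaccgccCCGGAAGTgacgccag
Hnrnpf (chr6:117900290-117900297, + strand): gctgcacaCCGGAAGTccctgtgc
Snrpe (chr1:133610267-133610274, − strand): tcttgcttCCGGAAGTcgctttcc

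The cell types differed in how the 4 families divided the splicing factor UMIs. The snRNP genes took 23.0 ± 1.05% (SD, n = 4 mice) of the members' UMIs in B cells, 21.8 ± 0.469% in PB, 26.3 ± 1.08% in CD4+ T and 30.3 ± 0.949% in CD8+ T cells. The SR genes took 18.7 ± 0.885%, 19.1 ± 0.720%, 16 ± 1.18% and 15.4 ± 0.485% in the same order of types. All 4 mice of both T cell types thus lay above all B cell values for snRNP (25.4 to 27.8% and 29.0 to 31.2% against 21.9 to 24.2%) and below them for SR (14.6 to 17.0% and 14.8 to 15.8% against 17.9 to 19.6%). The hnRNP share was 46.4 ± 0.261% in B and 43.3 ± 0.703% in CD8+ T cells, and SF3 took 11.9 ± 0.349% and 10.9 ± 0.443%. In NK cells, which were described without a test, snRNP genes took 29.1 to 34.7%.

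These shares do not depend on the total of a cell, and they were alike in cells thinned to 2000 UMIs, where snRNP took 22.4 to 24.1% in B, 25 to 28.6% in CD4+ T and 28.9 to 31.1% in CD8+ T cells. As a share of all UMIs the picture depends on the denominator. The log2 ratio of the summed share of all 52 genes to that in B cells was 0.05 in CD4+ T, -0.11 in CD8+ T and 0.12 in PB cells. With ribosomal protein and mitochondrial genes left out of the total, the CD8+ ratio turned to 0.16 and the PB ratio to -0.00044, so the sum gives no direction for these types. The snRNP sum was higher in both T cell types in 4 of 4 mice with every denominator tried (log2 ratios 0.24 and 0.29), and the SR sum was lower in CD8+ T cells in 4 of 4 mice (-0.39, or -0.12 without ribosomal protein and mitochondrial genes). In CD4+ T cells the SR ratio was -0.19, and without those genes -0.024, with 1 of 4 mice above B cells. Ribosomal protein genes, whose messages are also short and abundant, moved with the snRNP share: they took 24.6 to 26.9% of all UMIs in B, 18.3 to 20.2% in PB, 32.6 to 35% in CD4+ T, 36.4 to 39.8% in CD8+ T and 38.3 to 42.0% in NK cells. Their part in the differences was not tested. In sums over cells, fewer cells with a transcript and fewer molecules per cell cannot be told apart.

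In CD4+ T cells compared with B cells, 8 of 11 snRNP genes and 10 of 20 hnRNP genes were higher, while 4 of the 5 SR genes called were lower. Counts were summed per mouse and type and tested with edgeR's quasi-likelihood test, with the mouse as a block and trimmed-mean (TMM) scaling. Here higher and lower refer to called genes, and a gene is called when its p-value, adjusted by Benjamini-Hochberg over the 9229 genes tested, is under 0.05. Of the 50 members tested, 19 were higher and 8 lower, a share of 54.0% that is close to the 52.1% called among all genes (25.7% higher, 26.4% lower). With scaling by library size only, 12 were higher and 12 lower (22.1% and 30% of all genes), while the median of all genes moved by -0.07. The values of all 4 mice lay above every B cell value for 13 members and below for 5 (22% and 23.6% of all genes). The cell types were drawn by clustering these same cells, so a p-value here measures how alike the difference was over the mice.

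Of the 11 snRNP genes tested, 8 were higher in CD4+ T cells, 1 was lower and 2 were not called. Without Maus6 the number higher fell from 8 to 5, and without any one of the other mice it was 7 or 8. The median log2 fold change was 0.25. Levels per mouse are given in CPM, in the order Maus3_2, Maus6, Maus2_2 and Maus4_2. Snrpd3, an Sm ring gene, was at 99.9, 98.4, 86.9 and 95.7 in B cells and at 160, 160, 158 and 159 in CD4+ T cells. The 2 sets of 4 values do not overlap, and the difference was 0.74 on the log2 scale (SE 0.0803, edgeR adjusted p = 8.25e-13). Snrpf, another ring gene, was at 221, 247, 209 and 235 in B cells and at 354, 363, 311 and 355 in CD4+ T cells (0.60, SE 0.0620, edgeR adjusted p = 9.73e-14). Every CD4+ T value again exceeded every B cell value. Snrpb2 of the U2 particle differed by 0.54 (SE 0.0988) and its partner Snrpa1 by 0.43 (SE 0.134). Snrpe, Snrpc, Snrpd1 and Snrpg were higher by 0.23 to 0.29. The exception was Snrpd2, an Sm gene of the same ring, which was lower by 0.20 on the log2 scale (-0.20, SE 0.0784, edgeR adjusted p = 0.0266), a call lost without Maus3_2 or Maus4_2. Snrpb was at 0.18 (SE 0.0779, edgeR adjusted p = 0.0513), and Snrpa of U1 at -0.06 (SE 0.169).

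**Figure D2:**
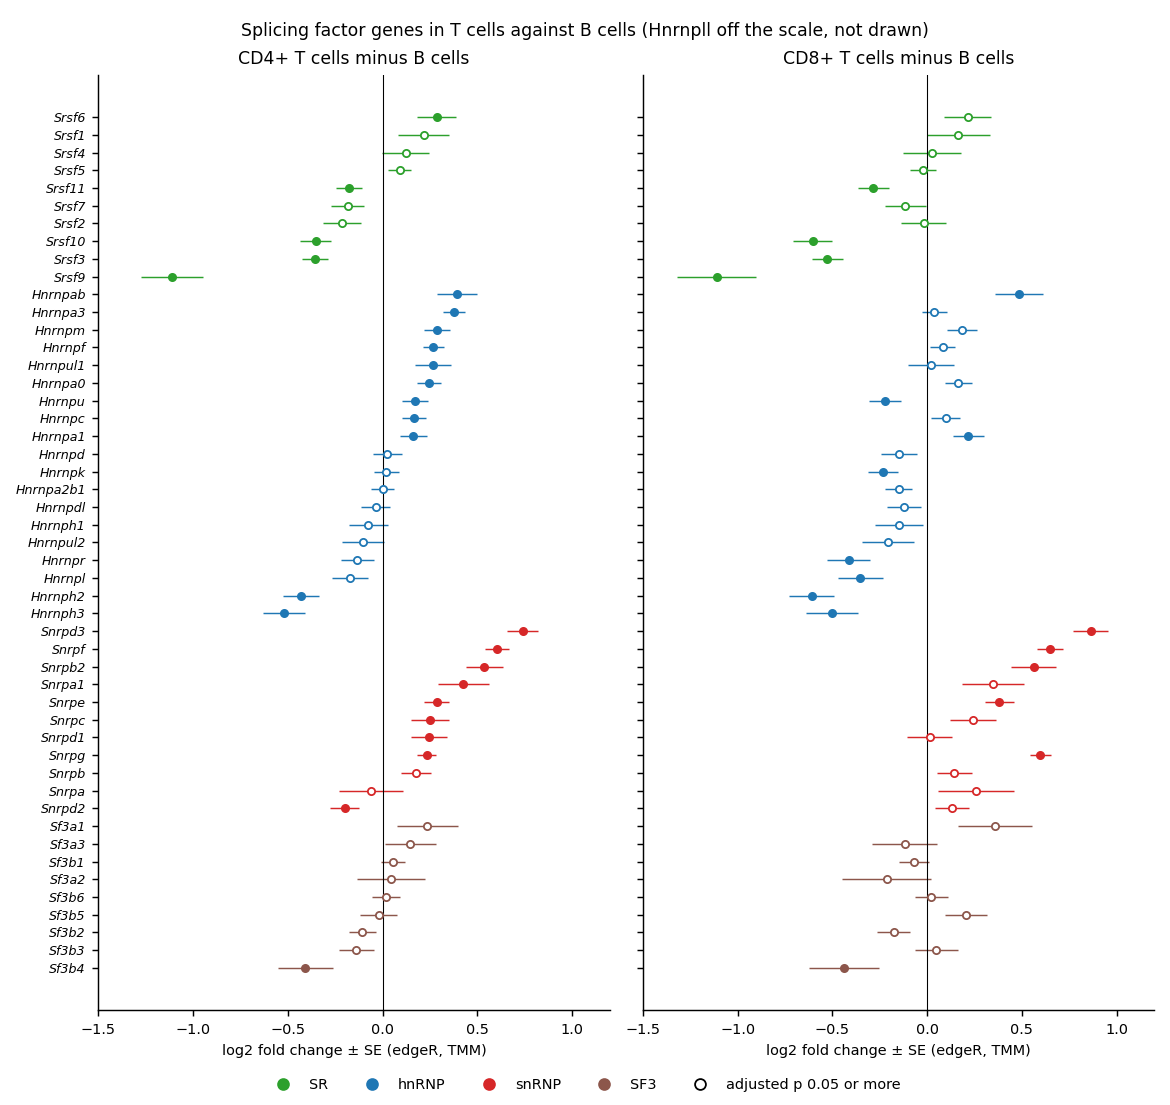
Log2 fold change (x axis, with its SE) of each tested gene in CD4+ T cells (left) and CD8+ T cells (right) against B cells, grouped by family, with filled points for adjusted p under 0.05; Hnrnpll is not drawn. Snrpd3 is the farthest right and Srsf9 the farthest left in both panels.

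Among the hnRNP genes, Hnrnpll set T cells apart from B cells. It was at 1.39, 0.306, 0 and 0.397 CPM in B cells (7 UMIs in all) and at 16.4, 21.5, 17.4 and 13.5 in CD4+ T cells (118 UMIs). The lowest CD4+ T value was far above the highest B cell value, and the fitted difference was 4.66 on the log2 scale (SE 0.416, edgeR adjusted p = 5.18e-16). In PB cells Hnrnpll had 0 UMIs in 474 cells, which allows up to 1.76 CPM. In cells thinned to 2000 UMIs it was detected in 3.67% of CD4+ T, 1.51% of CD8+ T and 0.138% of B cells (6.99%, 4.67% and 0.224% before thinning). The median UMIs per cell before thinning, by mouse, were 2652 to 4033 in B and 3500 to 5179 in CD4+ T cells.

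A further 9 of the 20 hnRNP genes were higher in CD4+ T cells and 2 were lower. Hnrnpab was higher by 0.39 (SE 0.105), and Hnrnpa3 by 0.38 (SE 0.0571), from 322, 371, 289 and 334 in B cells to 388, 496, 397 and 429 in CD4+ T cells. The lowest CD4+ T value of Hnrnpa3 lay just above its highest B cell value. Hnrnpm, Hnrnpf, Hnrnpul1, Hnrnpa0, Hnrnpu, Hnrnpc and Hnrnpa1 were higher by 0.16 to 0.29. The 2 lower genes were Hnrnph3, by 0.52 on the log2 scale (-0.52, SE 0.110), and Hnrnph2, by 0.43 (-0.43, SE 0.0956). Hnrnph1 was at -0.07 (SE 0.103) and was not called. Hnrnph2 was at 121, 99.9, 123 and 110 in B cells and at 72.7, 76.5, 94.8 and 95.1 in CD4+ T cells, again with no overlap. Hnrnpa2b1 and Hnrnpk were at 0.00 (SE 0.0605) and 0.02 (SE 0.0663).

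Of 10 SR genes tested, 4 were lower in CD4+ T cells and 1 was higher. Srsf9 showed the largest difference of the family, at 31.6, 43.1, 35 and 42.5 CPM in B cells and 16.9, 19.7, 17.4 and 15.4 in CD4+ T cells. The T cell values all lay below the B cell values (-1.11, SE 0.163, edgeR adjusted p = 1.33e-08). Srsf3, which also takes part in RNA export, was at 247, 256, 229 and 228 in B cells and at 187, 191, 192 and 180 in CD4+ T cells (-0.36, SE 0.0681, edgeR adjusted p = 6.82e-06). Srsf10 differed by -0.35 (SE 0.0829) and Srsf11 by -0.18 (SE 0.0676), whereas Srsf6 was higher by 0.29 (SE 0.102). The abundant Srsf5 was at 0.09 (SE 0.0586), Srsf1 at 0.22 (SE 0.135), Srsf2 at -0.21 (SE 0.102) and Srsf7 at -0.18 (SE 0.0885), none of them called. The SF3 genes had the fewest calls, with only Sf3b4 of 9 passing (-0.41, SE 0.147, edgeR adjusted p = 0.0156), a call lost without Maus2_2, and Sf3b1 was at 0.05 (SE 0.0656). With scaling by library size only, SR had 0 higher and 6 lower genes and snRNP 6 higher and 1 lower. The share of all genes called lower rose from 26.4% to 30% with this scaling. It therefore cannot check the lower SR calls, while the snRNP genes stayed mostly higher. The hnRNP genes then had 6 higher and 3 lower calls, and SF3 had 0 and 2.

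Of the 27 calls between CD4+ T and B cells, 16 held under every alternative run: Hnrnpa0, Hnrnpa3, Hnrnpab, Hnrnpf, Hnrnph2, Hnrnph3, Hnrnpll, Hnrnpm, Snrpb2, Snrpd3, Snrpe, Snrpf, Snrpg, Srsf3, Srsf9 and Srsf10. These include other scalings, DESeq2, limma-voom, equal cell numbers, no replicate block and each mouse left out. Counts for members with close paralogs or processed pseudogenes, among them Hnrnpa1, Snrpe and Snrpg, depend on how reads with several matches were assigned, which was not examined.

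**Figure D3:**
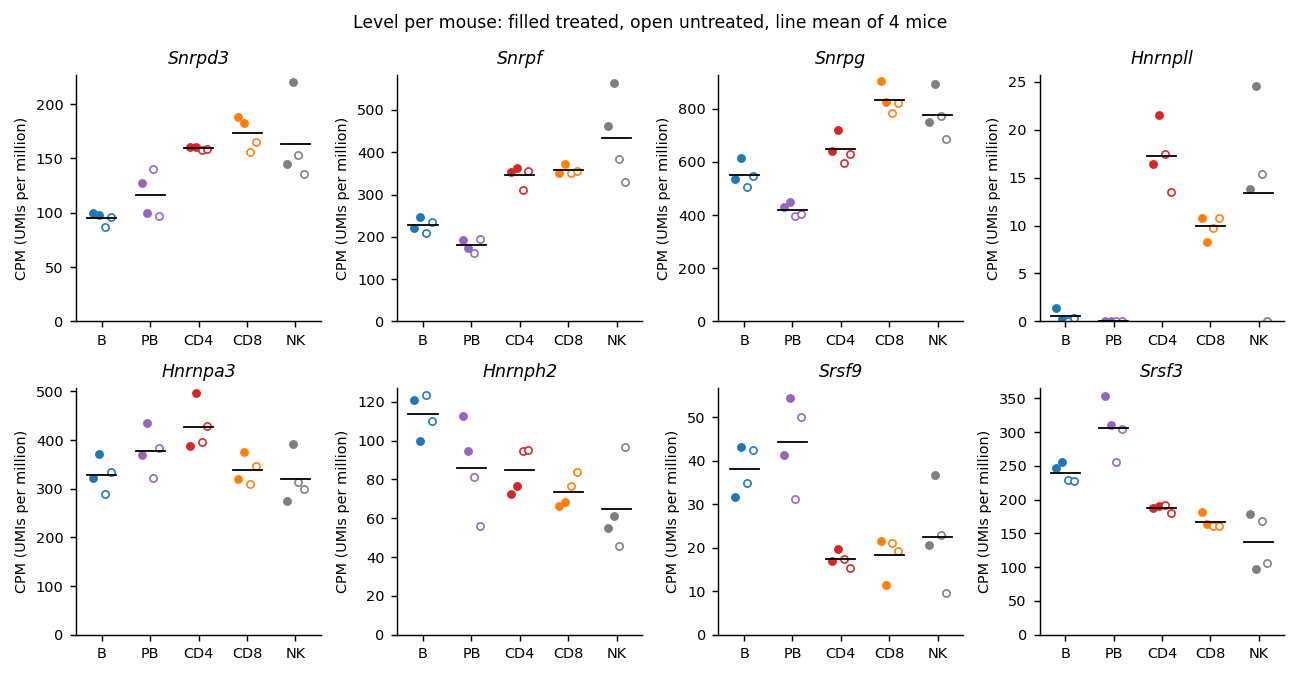
Level in CPM (y axis) of 8 genes per mouse in the 5 annotated cell types (x axis), filled for treated and open for untreated mice, with a line at the mean of 4 mice. Snrpd3, Snrpf and Hnrnpll are higher and Hnrnph2, Srsf9 and Srsf3 lower in both T cell types than in B cells, while the NK points rest on 13 to 22 cells per mouse.

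CD8+ T cells were compared with the same B cell sums, so this comparison shares its controls with that of CD4+ T cells. Here 8 members were higher and 11 lower (38.0% called, against 47.0% of all genes, with 22.8% higher and 24.2% lower). With library size only, the median of all genes moved by -0.20, and 7 members were higher and 21 lower (16.7% and 33.3% of all genes). No snRNP gene was lower and 5 of 11 were higher: Snrpd3 by 0.86 (SE 0.0932), Snrpf by 0.65 (SE 0.0697), Snrpg by 0.60 (SE 0.0548), Snrpb2 by 0.56 (SE 0.119) and Snrpe by 0.38 (SE 0.0764). With library size only, the snRNP count was also 5 higher and 0 lower. Snrpg was at 535, 616, 506 and 548 in B cells and at 903, 827, 785 and 822 in CD8+ T cells, the widest gap between mean levels of any member. Without overlap of the 4 mice, 8 members were above and 10 below (19.2% and 21.9% of all genes). Of the SR genes, 4 were lower and 0 higher: Srsf9 (-1.11, SE 0.208), Srsf10 (-0.60, SE 0.105), Srsf3 (-0.53, SE 0.0821) and Srsf11 (-0.28, SE 0.0804). The hnRNP genes were divided (3 higher and 6 lower, or 2 and 12 with library size only), with Hnrnpll (3.86, SE 0.551), Hnrnpab (0.48, SE 0.126) and Hnrnpa1 (0.22, SE 0.0801) higher and the lower ones led by Hnrnph2 (-0.61, SE 0.121) and Hnrnph3 (-0.50, SE 0.136). Hnrnpu was among the lower ones here (-0.22, SE 0.0845) and higher in CD4+ T cells (0.17, SE 0.0684). Without Maus2_2, 3 hnRNP genes were lower, and without Maus4_2, 5 were higher. Sf3b4 was again the one SF3 gene called (-0.44, SE 0.186), and leaving out any one mouse ended its call. Without Maus2_2 the number of lower members fell from 11 to 7.

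Between CD8+ and CD4+ T cells, 2 members were higher and 3 lower (10.0%, against 11.7% of all genes, with 6.56% higher and 5.1% lower). Snrpg was higher in CD8+ T cells by 0.36 (SE 0.0557, edgeR adjusted p = 3.39e-07), with all 4 CD8+ values above the highest CD4+ value of 720 CPM. Snrpd2 was higher by 0.33 (SE 0.0953, edgeR adjusted p = 0.0106). Hnrnpu, a nuclear scaffold protein, was at 215, 189, 223 and 220 in CD4+ and at 149, 171, 158 and 163 in CD8+ T cells, without overlap (-0.39, SE 0.0867, edgeR adjusted p = 0.000456). Hnrnpa3 (-0.34, SE 0.0670) and Hnrnpk (-0.25, SE 0.0820) were lower as well. Without overlap of the 4 mice, 1 was above and 5 below (6.72% and 6.43% of all genes). Hnrnpll was at -0.80 (SE 0.342, edgeR adjusted p = 0.135). The higher and lower counts became 1 and 14 with library size only (median of all genes -0.12) and 1 and 2 with no replicate block. The CD8+ T cells also carried the NK list at 0.0455 to 0.0608% of UMIs, against 0.00330 to 0.00659% in CD4+ T cells. Its UMIs in CD8+ T cells came from Klrd1 (884) and Nkg7 (900), while the defining NK gene Ncr1 was at 0 and Klrb1c at 1. The part of this list in the differences was not tested.

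PB cells differed from B cells in 12 members, 7 higher and 5 lower (24.0%, against 16.6% of all genes, with 8.53% higher and 8.09% lower). Srsf3 was higher by 0.39 (SE 0.0815, edgeR adjusted p = 0.000180), at 353, 311, 256 and 304 CPM against 247, 256, 229 and 228 in B cells. The lowest PB value, that of Maus2_2, lay just below the highest B cell value, so the sets overlap. Without overlap of the 4 mice, 1 member was above and 5 below (7.63% and 10.3% of all genes). Snrpa (0.74, SE 0.214), Srsf10 (0.34, SE 0.104), Snrpb (0.29, SE 0.106), Hnrnpd (0.28, SE 0.101), Hnrnpk (0.24, SE 0.0840) and Hnrnpa3 (0.22, SE 0.0726) were also higher. The Sm genes Snrpg (-0.37, SE 0.0671) and Snrpf (-0.31, SE 0.0909) were lower, opposite in sign to the T cells. Srsf7 (-0.47, SE 0.132), Hnrnpr (-0.41, SE 0.132) and Srsf5 (-0.24, SE 0.0773) were the other lower members. Only Srsf3 and Snrpg held under every alternative. The counts were 12 higher and 2 lower with library size only (median of all genes 0.09) and 3 and 4 with no replicate block. They were 1 and 2 with 71 cells per mouse and 2 and 3 without either Maus3_2 or Maus6. Without Maus4_2 they were 5 and 5. Without Maus2_2, the mouse with the largest red blood cell share in its PB cells, they were 4 and 4.

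Within a cell type, the authors' clusters differed in the balance of hnRNP and snRNP molecules. The clusters were drawn from these cells and are described without a test. Among B cells, cluster 1 held 1.54, 1.49, 1.48 and 1.45 hnRNP UMIs per snRNP UMI in the 4 mice and cluster 2 held 2.59, 2.66, 2.63 and 2.33. Cluster 0 lay between them (1.84 to 2.09). Among CD4+ T cells, cluster 3 held 1.48 to 1.75 and cluster 5 held 2.11 to 2.23. All 4 mice kept this order, treated and untreated alike. In cells thinned to 2000 UMIs the means were 1.55 for cluster 1, 2.59 for cluster 2, 1.55 for cluster 3 and 2.24 for cluster 5, against 1.49, 2.55, 1.58 and 2.17 in all cells.

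Single genes differed on both sides of this ratio. Snrpb was at 183, 182, 202 and 171 CPM in cluster 1 and at 107, 90.3, 98.3 and 87.5 in cluster 2, with a wide gap in every mouse. Snrpg had a mean of 863 in cluster 1 and 437 in cluster 2. Of the 49 members with at least 500 UMIs, 21 were lower in cluster 2 than in cluster 1 without overlap of the 4 mice and 5 were higher, where 18.8% of all genes were lower and 25.6% higher. With library size only the counts were 7 lower and 14 higher, where 9.94% of all genes were lower and 45% higher. Lower under both scalings were Snrpb, Snrpb2, Snrpc, Snrpd2, Snrpe, Snrpf and Snrpg, and higher under both were Hnrnpc, Hnrnph1, Hnrnpm, Hnrnpr and Srsf4. Cluster 0 lay between clusters 1 and 2 in single genes as well. Snrpb2, Snrpd3 and Snrpg were higher in cluster 1 than in cluster 0 under both scalings. With TMM, 8 members were higher and 1 lower (9.94% and 10.1% of all genes). Scaled by library size only, 3 were higher and 8 lower (4.34% and 22.8%). Snrpb, Snrpc, Snrpd2 and Snrpg were lower in cluster 2 than in cluster 0 under both scalings. There 8 members were lower and 1 higher with TMM (11% and 12.5% of all genes). Scaled by library size only, 4 were lower and 6 higher (6.36% and 23.2%). Between the CD4+ clusters 5 and 3, 12 members were lower and 2 higher with TMM (11.2% and 11.6% of all genes). Scaled by library size only, 4 were lower and 10 higher (4.64% and 29.6%). Snrpb, Snrpe, Snrpf and Snrpg were lower and Sf3b1 and Srsf4 higher under both scalings. Sf3b1 was at 277, 292, 284 and 249 in cluster 5 and at 240, 232, 233 and 237 in cluster 3.

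Depth and the ribosomal share differed between these clusters too. Ribosomal protein genes took 31.9 to 32.9% of UMIs in cluster 1, 19.8 to 20.5% in cluster 2, 36.7 to 38.6% in cluster 3 and 27.6 to 29.0% in cluster 5, and the median UMIs per cell, by mouse, were 2107 to 3175.5 in cluster 1 and 3343.5 to 4863 in cluster 2. Their part in the balance was not tested. Between the PB clusters, 2 members were lower and 2 higher in cluster 9 than in cluster 6 with TMM (10.3% and 4.44% of all genes). Scaled by library size only, 4 were lower and 1 higher (11.7% and 4.01%). None of these counts exceeded the share over all genes. Snrpg was higher and Srsf1 and Srsf3 were lower under both scalings. In cluster 8 against cluster 3, 7 members were lower and 0 higher (8.13% and 5.03% of all genes). Scaled by library size only, 0 were lower and 2 higher (3.58% and 12.9%). In cluster 7 against cluster 3, 2 were lower and 0 higher (4.3% and 1.94%), and 0 and 1 with library size only (1.9% and 3.53%).

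**Figure D4:**
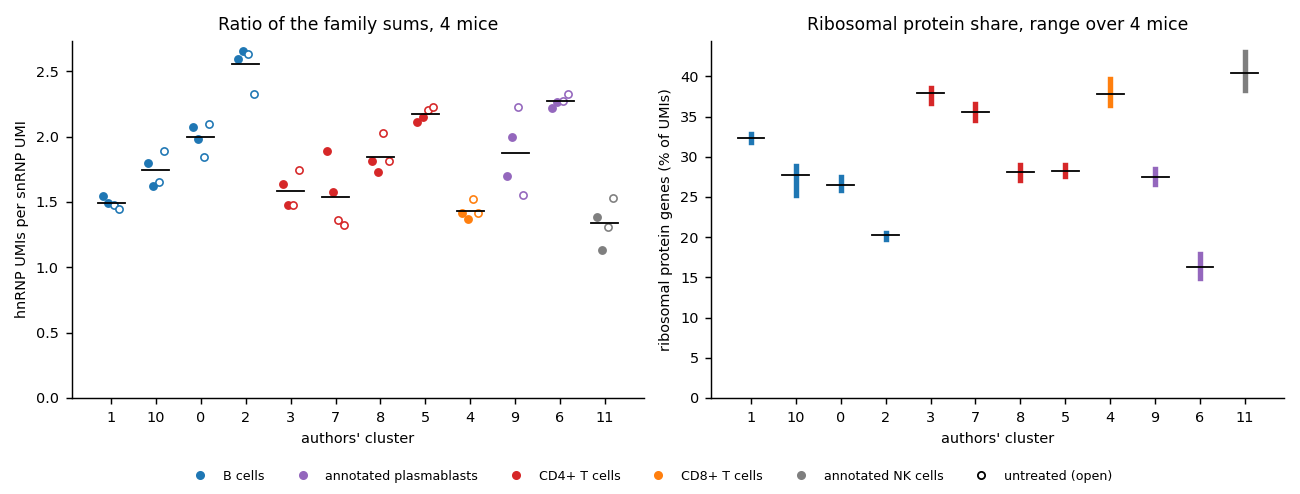
Left, hnRNP UMIs per snRNP UMI (y axis) in each of the authors' 12 clusters (x axis), 1 point per mouse, filled for treated and open for untreated, with a line at the mean. Right, the share of UMIs in ribosomal protein genes, as the range over 4 mice with a line at the mean; cluster 2 has the highest ratio (mean 2.55) and cluster 11 the lowest (mean 1.34).

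Between treated and untreated mice, no member tested passed the threshold in any cell type. For each type the 4 mice were compared 2 against 2, and 0 of 49 members in B, 0 of 50 in CD4+ T, 0 of 49 in CD8+ T and 0 of 49 in PB cells were called by edgeR, as by DESeq2 and limma-voom. Among all genes 0%, 0%, 0.0294% and 0.0186% were called. At an unadjusted p under 0.05, edgeR gave 2 higher and 0 lower members in B cells (2.45% and 2.19% of all genes), 0 and 3 in CD4+ T (2.42% and 2.37%), 2 and 0 in CD8+ T (4.6% and 3.84%) and 1 and 1 in PB cells (3.11% and 3.69%). DESeq2 gave 0 in each type. The smallest edgeR adjusted p-values of a member were 0.934, 0.903, 0.537 and 0.724, and the log2 fold changes lay between -0.62 and 0.74.

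In B cells, Srsf2 was at 93.0 and 81.6 CPM in the treated and at 71.4 and 68.3 in the untreated mice (0.33, SE 0.130, edgeR adjusted p = 0.934). Both treated mice were higher, but the gap between the groups was smaller than that between the treated mice. In CD8+ T cells, Srsf7 was at 149 and 117 in treated and at 96.1 and 87.5 in untreated mice (0.52, SE 0.191, edgeR adjusted p = 0.537). In CD4+ T cells, Hnrnph2 was at 72.7 and 76.5 in treated and at 94.8 and 95.1 in untreated mice (-0.35, SE 0.127, edgeR adjusted p = 0.903). Hnrnph2 was the leading member in PB cells as well, there with the treated mice higher, at 113 and 94.5 against 81.0 and 56.1 (0.58, SE 0.269, edgeR adjusted p = 0.724). The Ptprc regulator Hnrnpll, tested in CD4+ T cells only, was at 16.4 and 21.5 against 17.4 and 13.5 (0.28, SE 0.290).

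With TMM scaling, most members had small positive log2 fold changes in the treated mice. They were above 0 for 34 of 49 members in B, 35 of 50 in CD4+ T, 35 of 49 in CD8+ T and 32 of 49 in PB cells, against 50.8%, 51.1%, 50.6% and 50.4% of all genes. The members' medians were 0.07, 0.05, 0.09 and 0.13. With library size only the numbers were 28, 26, 22 and 30, against 44.4%, 42.8%, 38.8% and 46.1% of all genes. The snRNP genes were above 0 in 10, 8, 11 and 9 of 11, and in 10, 7, 8 and 7 with library size only. The same 4 mice give all types, so the types are not independent of each other. The rank correlation of log2 fold change with gene length over all genes tested was -0.27 to -0.33 in the 4 types, as a description across genes that are not independent. Among the members alone it was -0.20 in B, -0.20 in CD4+ T, -0.036 in CD8+ T and -0.097 in PB cells. Of all genes between the members' lower and upper length quartiles 60.4 to 61.7% were above 0. The part of length in the members' direction was not tested. Fitted inside single clusters with TMM scaling, 61.2%, 59.2% and 51.0% of members were above 0 in the B cell clusters 0, 1 and 2. The CD4+ clusters 3, 5 and 8 gave 62.0%, 47.8% and 40.0%, and the CD8+ cluster 4 gave 71.4%. The PB clusters 6 and 9 gave 66.7% and 56.0%. All genes gave 48.9 to 51.8% in these clusters, so the members' excess was not seen in clusters 5 and 8 and was small in cluster 2.

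Counted by mouse, both treated values lay above both untreated values for 18 members in B, 10 in CD4+ T, 18 in CD8+ T and 22 in PB cells, and below for 3, 7, 2 and 6. All genes gave 17.5%, 18%, 20.1% and 21.8% above and 17.3%, 17.3%, 18.3% and 15.4% below. With library size only, 11, 5, 8 and 15 members were above and 4, 10, 5 and 10 below, where all genes gave 14.5%, 13.3%, 12.6% and 16.6% above and 20.2%, 21.9%, 26.1% and 20.1% below. As shares with TMM scaling, the members gave 36.7% above in B, 36.7% in CD8+ T and 44.9% in PB cells, and were close to the background in CD4+ T cells. Hnrnpf, Sf3b6 and Snrpb were above in all 4 types, which 1.74% of all 4933 genes tested in all types were; with library size only, 0 members were. For Snrpb the treated mice were at 130 and 137 and the untreated at 121 and 115 in B cells, and at 158 and 143 against 135 and 130 in CD4+ T cells.

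**Figure D5:**
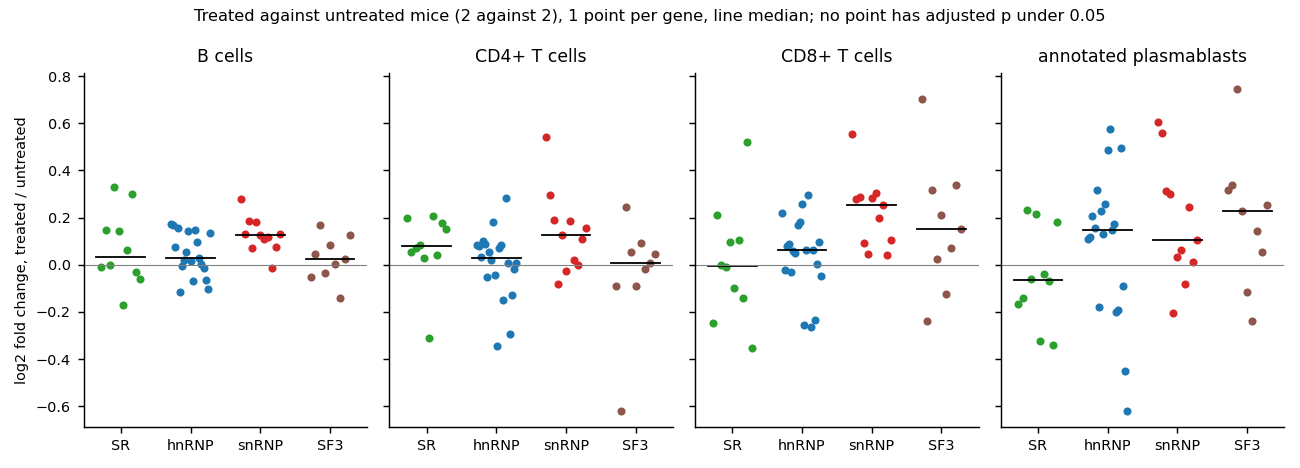
Log2 fold change (y axis) of treated over untreated mice for each tested gene, grouped by family (x axis) in 4 cell types, with a line at the family median. No point passes adjusted p 0.05, and the snRNP medians are 0.13 in B, 0.13 in CD4+ T, 0.25 in CD8+ T and 0.11 in PB cells.

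A treatment effect that differs between cell types was tested as an interaction against B cells, and 0 of 50 members were called for CD4+ T, CD8+ T or PB cells, where 0.0202%, 0.0101% and 0.0303% of all genes were. The unadjusted p was under 0.05 for 0, 1 and 2 members, and for 3.05%, 4.42% and 4.55% of all genes. Within the authors' clusters, 0 members were called in the 9 clusters with at least 20 cells in every mouse (0, 1, 2, 3, 4, 5, 6, 8 and 9), where the share of all genes called was 0.0391%, 0.0306%, 0.0125%, 0%, 0%, 0%, 0.0222%, 0% and 0.0756% in that order. The number of members at an unadjusted p under 0.05 in those clusters was between 0 and 3, where 3.28 to 8.19% of all genes passed. Cluster sizes also differed between the groups. Cluster 1 made up 17.8% and 21.7% of all cells in Maus3_2 and Maus6, and 11.4% and 15.6% in Maus2_2 and Maus4_2. For cluster 5 the values were 7.28% and 5.69% against 11.9% and 7.51%. Cluster 6 was at 8.20% and 6.16% against 4.73% and 4.07%. Cluster 8 was at 2.43% and 1.17% against 4.43% and 2.74%, and cluster 9 at 1.84% and 1.70% against 2.22% and 1.91%. The groups overlapped in clusters 0, 2, 3 and 4. The part of cluster sizes in the members' direction under treatment was not tested.

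The miRNAs miR-223-3p and miR-451a, known from myeloid and red blood cells, were also profiled in the work on NTP. The members' 3′ UTRs were searched for the 7-base match to the seed (bases 2 to 8, in capitals) of both miRNAs:
mmu-miR-223-3p: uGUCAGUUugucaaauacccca
mmu-miR-451a: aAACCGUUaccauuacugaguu
A miR-223-3p match was found in 1 of the 52 members (1.92%), against 1153 of 12493 genes with an annotated 3′ UTR (9.23%), and a miR-451a match in 0 of 52, against 1.90%. The members' UTRs were shorter, with a median of 847.5 bases against 1142. The single match lies in Hnrnpr, in a UTR annotated at 19419 bases, with the match in capitals on the plus strand at chr4:136359252-136359258 (GRCm38):
Hnrnpr: aaacacggtcAACTGACtgctgagact
Hnrnpr was at 97.3 and 87.9 CPM in treated and at 112 and 116 in untreated CD4+ T cells (-0.30, SE 0.122, edgeR adjusted p = 0.903), at 73.9 and 80.6 against 86.3 and 95.9 in CD8+ T cells (-0.24, SE 0.208, edgeR adjusted p = 0.804), and at 99.96 and 87.2 against 56.1 and 73.8 in PB cells (0.50, SE 0.272, edgeR adjusted p = 0.773). In B cells the log2 fold change of Hnrnpr was -0.015 (SE 0.125, edgeR adjusted p = 0.995). The treated mice were thus lower in both T cell types, higher in PB cells and little different in B cells. No difference passed the threshold.

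Of 204 further splicing genes in the table, covering other U1, U2 and U4/U6.U5 proteins, regulators, the exon junction complex and nonsense-mediated decay, 197 were tested between cell types. In CD4+ T against B cells 37 were higher and 36 lower, with a median log2 fold change of 0.01. This is 37.1% of the list, below the 52.1% called among all genes. With library size only, 23 were higher and 44 lower, where 22.1% of all genes were higher and 30% lower. Srpk1, a kinase that phosphorylates SR proteins, was higher in CD4+ T cells by 2.13 (SE 0.104) and in CD8+ T cells by 1.93 (SE 0.124). Smg1, the kinase that starts nonsense-mediated decay, was lower by 0.87 in CD4+ T cells (-0.87, SE 0.0696) and by 0.95 in CD8+ T cells (-0.95, SE 0.0834). Qk, an RNA-binding regulator of splicing, was also lower (-0.80 and -1.03). CD8+ T cells had 26 of the 197 higher and 31 lower than B cells (28.9%, against 47.0% of all genes), and 3 higher and 6 lower than CD4+ T cells (4.57%, against 11.7%), led by Scaf11 (0.60, SE 0.0836). PB cells had 9 higher and 8 lower than B cells (8.63%, against 16.6%). These counts depend on the scaling. With library size only, 5.08% of the list were higher and 33.0% lower in CD8+ T against B cells (16.7% and 33.3% of all genes). In CD8+ against CD4+ T cells these shares were 0.508% and 8.12% (4.5% and 9.45% of all genes). In PB against B cells they were 9.14% and 2.03% (12.8% and 5.79% of all genes). Under treatment 0 of 200, 198, 181 and 163 tested genes of this list were called in B, CD4+ T, CD8+ T and PB cells, and the unadjusted p was under 0.05 for 6, 7, 10 and 8 (3%, 3.54%, 5.52% and 4.91%, against 4.65%, 4.79%, 8.44% and 6.79% of all genes).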

How the data were processed

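Per the labels and methods, the authors mapped 10x Genomics 3′ v3.1 libraries with Cell Ranger 7.1.0 to mm10 and corrected for free RNA. They used Seurat 4.3.0 to keep cells with 200 to 2500 genes and at most 10% mitochondrial reads. Doublets were then removed with DoubletFinder, and the cells were clustered in Seurat at resolution 0.8. The authors deposited the UMI counts of each gene and cell as whole numbers. Whether these precede or follow the free RNA correction is not given in those sources, and its effect on low counts, such as those of Hnrnpll in B cells, is unknown. The deposited cell table holds the authors' cell types, clusters and a percentage of mitochondrial reads per cell, which the authors computed from the counts. The authors tested treatment over cells, whereas here the mouse is the replicate.

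For each mouse, UMIs were added up over the cells of a type or cluster. NK cells and clusters 7, 10 and 11 had under 20 cells in some mouse and were not tested. The sums were fitted with edgeR 4.0.16 (quasi-likelihood test, TMM scaling, filterByExpr, Benjamini-Hochberg adjustment, threshold 0.05) in R 4.3.3, with the standard error taken as the log2 fold change over the square root of F. Treatment was fitted per type, and cell types were compared with the mouse as a block, since sums of 1 mouse come from the same animal. Samples were grouped by the labels, and replicate numbers do not pair treated with untreated mice. DESeq2 1.42.0, limma-voom (limma 3.58.1), other scalings, no filter, equal cells per mouse, no replicate block and leaving out each mouse were run as alternatives. The fits were first tested on simulated data. Depth was 4653719 to 7093148 UMIs per mouse and 522 to 10932 per cell, and the floor for a count of 0 is 3 UMIs. Any member could be named. Full statistics were meant for up to 8 called members per direction with the largest change (mean of at least 20 CPM, same sign in all 4 mice), up to 5 per direction with the smallest p under treatment, the 3 most abundant and the least abundant per family, a fixed set of well-known members, and up to 4 further splicing genes per contrast. Others named here were chosen after their values were seen. The 52 members, the further splicing genes and the marker lists were chosen with earlier results of these data known. The library size scaling was added after seeing the data. Motifs and seed matches were searched in RefSeq (GRCm38.p6) promoters and GENCODE vM21 3′ UTRs, on both strands for promoters. Protein sequences were not used here.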

Additional observations from a re-analysis of the deposited data

Results flagged for a closer look

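For 5 of the 49 members tested in all 4 cell types (10.2%), both treated mice lay above both untreated mice in at least 1 type and below them in at least 1 other, which was so for 15.9% of 4933 genes. Scaled by library size only, it was so for 8 members (16.3%, against 15.3% of all genes), where Hnrnpul2 dropped out and Hnrnph1, Snrpd3, Srsf6 and Srsf7 joined. None of these differences passed the threshold of edgeR's test in any type, and the difference between types was tested only against B cells, where no member was called. Hnrnpr had log2 fold changes of -0.30 in CD4+ T, -0.24 in CD8+ T and 0.50 in PB cells. Hnrnph2 had -0.35 in CD4+ T, -0.26 in CD8+ T and 0.58 in PB cells, the same order of signs. Sf3a1 had -0.091 in CD4+ T, 0.70 in CD8+ T and 0.32 in PB cells. Sf3b2, an SF3b subunit, had 0.085 in B, -0.090 in CD4+ T and 0.21 in CD8+ T cells. Hnrnpul2 had 0.14 in B and -0.62 in PB cells.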

How the results depend on the processing

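Under treatment, 0 members were called under every alternative run. Between cell types, numbers of called members moved by over 1.5 times as follows. With library size only, 12 were higher in CD4+ T against B cells, 21 lower in CD8+ T against B cells, 1 higher and 14 lower in CD8+ against CD4+ T cells, and 12 higher and 2 lower in PB against B cells, and 22 members had treatment changes above 0 in CD8+ T cells. For PB against B cells, 4 were higher with DESeq2, 2 with no filter, and 1 higher and 2 lower with equal cells. Without the replicate block (the mouse), 1 was higher in CD8+ against CD4+ T cells and 3 in PB against B cells, and the block moved no other such count by over 1.5 times. Leaving out each mouse gave 7 to 9 lower in CD8+ T against B cells, 1 to 2 higher in CD8+ against CD4+ T cells, and 2 to 5 higher and 3 to 5 lower in PB against B cells.

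Log2 ratios of summed shares to B cells are given without ribosomal protein and mitochondrial genes, without each family's top member and with TMM-scaled totals. In CD4+ T cells they were 0.40, 0.27 and 0.31 for snRNP and -0.024, -0.27 and -0.12 for SR, and 0.21 (first) and 0.11 (last) for all members. In CD8+ T cells they were 0.56, 0.22 and 0.47 for snRNP, -0.12, -0.46 and -0.20 for SR, and 0.16, -0.17 and 0.073 for all members, which changed sign. In PB cells all members gave -0.00044, 0.15 and -0.0058. The cause was not tested.

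Single genes followed were members called between cell types, up to 5 per direction and type under treatment, and up to 4 further splicing genes per contrast. For these, 1043 alternatives kept direction and side of the threshold and 139 lost the call. Members under treatment had no call to lose. Calls that held under every alternative were 16 of 27 in CD4+ T and 14 of 19 in CD8+ T against B cells. They were 3 of 5 in CD8+ against CD4+ T and 2 of 12 in PB against B cells. The sign changed in 6 alternatives, all under treatment. These were Hnrnpu in B cells with equal cells (0.0038) and, over the fits that leave out 1 mouse, Sf3b4 in B (-0.30 to 0.053), Hnrnpab in B (-0.31 to 0.13), Srsf1 in CD8+ T (-0.62 to 0.029), Srsf9 in CD8+ T (-0.81 to 0.096) and Srsf7 in PB cells (-0.62 to 0.00054).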
